A study of Mus musculus with 6 samples.

Results

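MHC class II genes load and present antigen peptides, and 7 of them were followed here in whole anterior prostates (AP) from OEx and from Ctrl mice. They are Cd74, H2-Aa, H2-Ab1, H2-Eb1, H2-DMa, H2-DMb1 and Ciita, taken by gene symbol from the 55076 listed for each mouse. All 7 had a single entry, and 6 averaged 1 FPKM or more and passed the filter on low values. FPKM stands for fragments per kilobase of exon, nominally scaled to library size, though the scaling per read differed between the groups (below). OEx mice carried Pbsn-Cre and 1 copy of the Rosa26 N1ICD allele, so that the Notch1 intracellular domain was expressed where the probasin promoter drives Cre, in the prostatic epithelium. Ctrl mice carried Rosa26 N1ICD/+ without Cre according to the methods of the study, and their sample labels read wild type. All mice were males of 20 weeks of age, and total RNA of 3 AP samples per group was sequenced after secretions had been cleaned off. Each sample is called a mouse here, though the labels do not state that the 3 came from separate animals. A whole AP also holds stroma, vessels and leukocytes, in which this Cre is not meant to act, so more cells of a type and more RNA per cell cannot be told apart.

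Class II molecules are surface heterodimers of an alpha and a beta chain that show peptides from endocytosed proteins to CD4 T cells. The invariant chain, encoded by Cd74, escorts new heterodimers to the endosome, where proteases trim it to a short peptide called CLIP, and H2-DM exchanges CLIP for antigen peptides. Dendritic cells, macrophages and B cells express the genes constitutively, and many epithelia can be induced to do so by interferon gamma. Ciita, a transactivator that does not bind DNA itself, is recruited to class II promoters by RFX, CREB and NF-Y and sets the transcription of the whole group. CD74 at the cell surface also serves as a receptor of the cytokine MIF.

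Notch1, the targeted gene, was measured at 41.9 to 78.9 FPKM in OEx mice and 3.34 to 5.55 FPKM in Ctrl mice, which does not separate the transgene from the endogenous gene. Depth, recovered from FPKM and exon lengths, was 14772005 to 18655462 reads per mouse. The prostate genes Hoxb13 and Pbsn were present in every mouse. Ctrl replicate 3 also held transcripts of the seminal vesicle, such as Svs2 at 3837 FPKM against at most 1.09 FPKM in the other mice. Replicates 1 and 2 of each group were closer to each other (chi-square per degree of freedom 3.67 in OEx and 2.93 in Ctrl mice) than to replicate 3 (50.4 to 86.7), yet differed by more than counting noise, and were counted as separate samples. Genes were compared with limma on log2(FPKM + 1) and called with an FDR under 0.05 and a fold change over 2, the criteria of the study.

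The level of class II transcripts was led by Cd74. Cd74 lies on chromosome 18 from 60803848 to 60812652 of GRCm38, plus strand, and overlaps the microRNA gene Mir5107. It was measured at 339, 325 and 83.6 FPKM in OEx against 127, 123.1 and 209.8 FPKM in Ctrl mice, here and below in the order of replicates 1, 2 and 3. OEx replicates 1 and 2 lay above every Ctrl mouse, and OEx replicate 3 lay below every Ctrl mouse. The log2 fold change of Cd74 was 0.50 (standard error, SE, 0.56; limma FDR 0.455).

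H2-Aa and H2-Ab1 encode the alpha and the beta chain of the I-A molecule. H2-Aa, on the minus strand of chromosome 17 from 34282744 to 34287823, was measured at 98.3, 100.4 and 21.4 FPKM in OEx against 32.5, 31.0 and 64.7 FPKM in Ctrl mice. H2-Ab1, on the plus strand from 34257689 to 34269419, was measured at 106, 112 and 18.7 FPKM in OEx against 37.9, 36.9 and 78.6 FPKM in Ctrl mice. As for Cd74, OEx replicates 1 and 2 lay above the Ctrl mice, OEx replicate 3 was lowest of all and Ctrl replicate 3 was highest of its group. Their log2 fold changes were 0.56 (SE 0.63, limma FDR 0.455) for H2-Aa and 0.34 (SE 0.71, limma FDR 0.686) for H2-Ab1. Neither fold change exceeded its standard error.

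H2-Eb1 encodes the beta chain of the I-E molecule. It lies on the plus strand of chromosome 17 from 34305867 to 34316674 and overlaps the antisense transcript Gm20513, and counting by strand is not stated. It was measured at 161, 174 and 43.4 FPKM in OEx against 58.9, 60.2 and 117 FPKM in Ctrl mice. The groups overlapped through both replicates 3, and the log2 fold change was 0.51 (SE 0.57, limma FDR 0.451). The gene of the I-E alpha chain is annotated as the polymorphic pseudogene H2-Ea-ps, since only some mouse haplotypes express it, and it was listed at 0 FPKM in all 6 mice.

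The promoters of the class II genes are shown as a description. A link between their motifs and the shared pattern between mice was not tested, and genes outside class II also followed that pattern (below). RefSeq windows of GRCm38.p6, matched by symbol, were held for 4 of the 7 genes (H2-Aa, H2-Eb1, H2-DMb1 and H2-DMa, the last with 2 windows), and 250 bases before the start were searched. As background, RFX binds the X box and NF-Y the Y box of class II promoters, with CREB between them. The search took GNAAC as the core of the X box and ATTGG as the core of the Y box, on the gene's strand and with 25 to 45 bases from start to start. ATTGG is the reverse complement of CCAAT, which was found on either strand in 33.8% of the 32851 promoters. The 120 bases before the start of H2-Aa (chr17:34287824-34287943, minus strand) and of H2-Eb1 (chr17:34305747-34305866, plus strand) read as follows, 5′ to 3′, with the GCAAC and ATTGG cores in capitals.
H2-Aa: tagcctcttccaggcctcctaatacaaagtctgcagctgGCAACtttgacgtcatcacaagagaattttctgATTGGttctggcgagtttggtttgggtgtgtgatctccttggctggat
H2-Eb1: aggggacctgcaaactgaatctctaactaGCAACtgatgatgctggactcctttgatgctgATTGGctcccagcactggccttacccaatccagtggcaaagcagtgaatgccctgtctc
The X core began 81 bases and the Y core 48 bases before the start of H2-Aa, 33 bases apart. In H2-Eb1 they began at 91 and 59 bases, 32 bases apart, and in H2-DMb1 at 94 and 61 bases, 33 bases apart. The pair was found in 475 of all promoters (1.45%) and in neither window of H2-DMa. Those 2 windows (34122582 to 34122881 and 34125268 to 34125567) lie inside the annotated span of H2-DMa, 34119541 to 34139101. Other starts of this gene were not searched, so its windows do not show whether it lacks the pair. TGACGTCA, the palindrome that CREB binds, was matched in H2-Aa alone of the 4 genes, 74 bases before the start, and in 1.55% of all promoters. A match of letters is a description and not a bound site.

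H2-DMa and H2-DMb1 encode the chains of the peptide exchange factor H2-DM. H2-DMa was measured at 11.5, 11.5 and 2.30 FPKM in OEx against 3.70, 4.001 and 7.06 FPKM in Ctrl mice. H2-DMb1 was measured at 8.74, 7.66 and 1.79 FPKM in OEx against 4.74, 3.12 and 5.98 FPKM in Ctrl mice. Replicate 3 was again the lowest OEx mouse and the highest Ctrl mouse. The log2 fold change was 0.48 (SE 0.54, limma FDR 0.459) for H2-DMa and 0.17 (SE 0.49, limma FDR 0.773) for H2-DMb1. H2-DMa, on chromosome 17 from 34119541 to 34139101, overlaps Brd2, Gm20493 and antisense transcripts. H2-DMb1, from 34153072 to 34160230, has the close paralogue H2-DMb2, and reads shared by the pair could have been split between them.

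Ciita was the exception to this ranking. The gene lies on the plus strand of chromosome 16 from 10480059 to 10528418 and overlaps Dexi on the other strand. It was measured at 0.904, 1.04 and 0.302 FPKM in OEx against 0.210, 0.227 and 0.173 FPKM in Ctrl mice, from 172, 227 and 52 reads and 25, 28 and 25 reads. Every OEx mouse exceeded every Ctrl mouse, which also held for 33.4% of the genes tested. OEx replicate 3 was the lowest OEx mouse for Ciita too, but Ctrl replicate 3 was the lowest Ctrl mouse. With a mean below 1 FPKM in both groups Ciita did not pass the filter, and without the filter its log2 fold change on the log2(FPKM + 1) scale was 0.51 (SE 0.18, limma FDR 0.0698), a scale that understates low genes. In limma-voom on the recovered reads the log2 fold change was 1.74 (SE 0.63, FDR 0.0437), and Ciita was called higher, as were 22.2% of the genes in that fit. The exact permutation test of 3 against 3 mice gave a two-sided p of 0.1 for Ciita, the smallest it can give, and 0.4 to 0.8 for the other 6 genes.

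**Figure D1:**
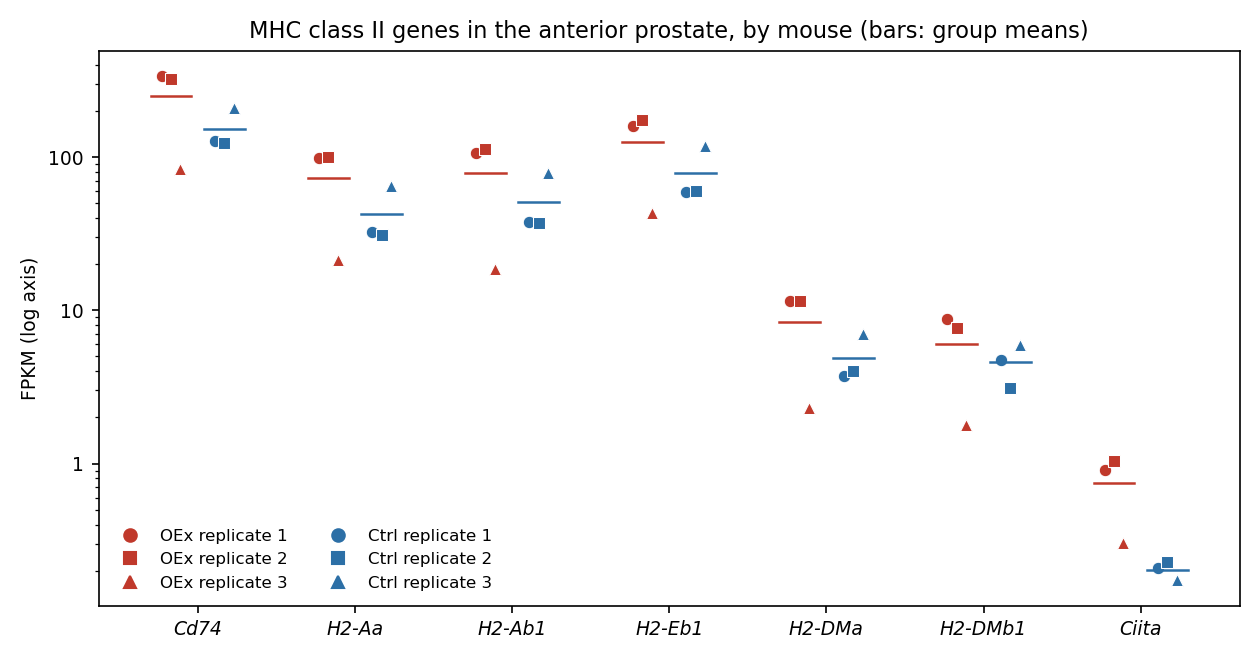
FPKM of the 7 class II genes in each mouse on a log axis, with OEx mice in red, Ctrl mice in blue, marker shapes for the replicates and bars for the group means (n = 3). OEx replicate 3 is the lowest mouse for the 6 genes from Cd74 to H2-DMb1, while for Ciita each OEx mouse exceeds each Ctrl mouse.

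None of the 6 tested class II genes was called higher or lower, against 12.9% of all genes called higher and 28.6% called in either direction. At an unadjusted limma p under 0.05 the count was also 0, against 8841 of the 12540 tested genes with a single entry. Each of the 6 log2 fold changes was above 0, as were 5890 of those 12540. Their median was 0.49 for the 6 class II genes against -0.08 for all genes tested. In FPKM, OEx replicate 3 was the lowest of the 6 mice for all 6 genes, which was so for 18.1% of all genes.

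The outcome depended on OEx replicate 3. Each of the 6 mice was left out in turn, and without this mouse 5 class II genes were called higher, as were 13.4% of all genes. The log2 fold changes of these 5 ran from 1.12 (SE 0.25) for H2-DMa to 1.28 (SE 0.33) for H2-Aa, with limma FDR from 0.00884 for Cd74 to 0.0269 for H2-Ab1. H2-DMb1 had 0.74 (SE 0.23, limma FDR 0.0332), below the fold criterion. Without replicate 3 of both groups, an alternative added after the values were seen, the same count of 5 was called, beside 14.2% of all genes, and their log2 fold changes lay between 1.36 and 1.62. In both fits the OEx spread came from replicates 1 and 2 alone, which lay close together. The SE and FDR of these fits may therefore understate the spread between animals. With replicates 1 and 2 averaged to 1 mouse in each group, also added later, 0 were called and Cd74 stood at 0.04. On the log2(FPKM + 1) scale OEx replicate 3 differed from the mean of the other OEx mice by -1.72 (H2-DMb1) to -2.48 (H2-Ab1), and Ctrl replicate 3 lay 0.52 to 1.05 above the other Ctrl mice.

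The scaling between mice moved the values as well. Per recovered read, the library size implied by FPKM was 1.34, 1.34 and 1.22 for OEx replicates 1 to 3. For the Ctrl replicates it was 0.726, 0.730 and 0.815, so equal FPKM did not stand for equal shares of reads. The 20 most abundant genes held 34.0%, 34.1% and 27.2% of Ctrl reads, against 7.63%, 7.29% and 9.02% of OEx reads. The origin of the differing library sizes was not tested. The FPKM of a mouse summed to 253965 to 272224 in OEx and 467138 to 529972 in Ctrl mice, and rescaling each mouse to equal totals (TPM) shifted the median over all genes from -0.08 to 0.65 on the log2 scale. In TPM the log2 fold changes of the class II genes ran from 0.91 (H2-DMb1) to 1.44 (H2-Aa), with limma FDR from 0.0599 to 0.161, and 0 were called while 34.7% of all genes were called higher. In TPM without OEx replicate 3, a fit added after the values were seen, all 6 were called higher, as were 36.0% of all genes. Cd74 reached 1325, 1281 and 307 TPM in the OEx mice and 272, 263 and 396 TPM in the Ctrl mice. On this scale OEx replicate 3 lay above Ctrl replicates 1 and 2 for Cd74, H2-Aa and H2-Eb1. For H2-DMa it lay above Ctrl replicate 1 (8.43 against 7.92 TPM), and it stayed lowest of all for H2-Ab1 and H2-DMb1. Relative to the shift of all genes, the median of the class II genes stayed above that of the genes tested on both scales, at 1.32 in TPM.

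**Figure D2:**
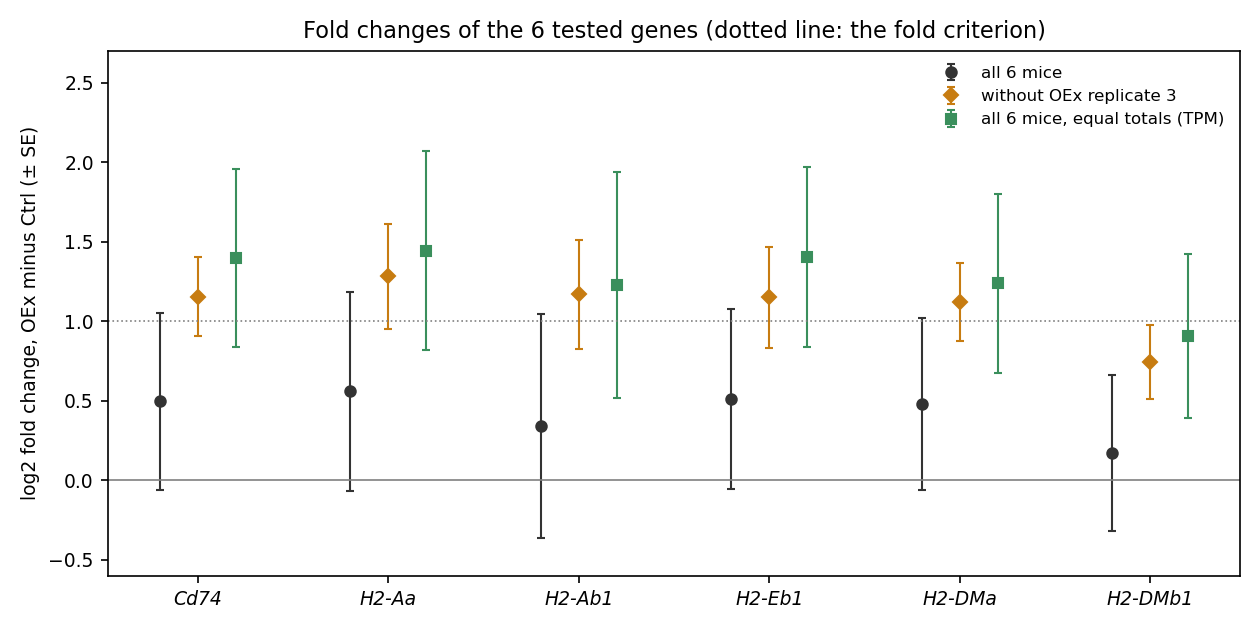
Log2 fold change (OEx minus Ctrl, points) and standard error (bars) of the 6 tested class II genes with all 6 mice, without OEx replicate 3 and with equal totals in all 6 mice. The dotted line is the fold criterion of 1 on the log2 scale, which 5 genes pass without OEx replicate 3 and which H2-DMb1 does not reach in any of the 3 fits.

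The proportions among the class II genes varied less between mice for some genes than for others. Cd74 made up 43.4% to 48.8% of the summed FPKM of the 7 genes in all mice, H2-Eb1 22.2% to 25.3%, H2-Ab1 10.9% to 16.2% and H2-Aa 11.99% to 13.7%. The ratio of H2-Eb1 to Cd74 lay between 0.464 and 0.560 over the 6 mice, a 1.21-fold range, while Cd74 itself varied 4.05-fold. The range of the ratio to Cd74 was 1.23-fold for H2-Aa, 1.29-fold for H2-DMa, 1.67-fold for H2-Ab1, 1.74-fold for H2-DMb1 and 4.39-fold for Ciita. H2-Eb1 was second to Cd74 in each mouse. H2-Ab1 lay above H2-Aa in every mouse except OEx replicate 3, where the order was reversed. Their means were 79.0 ± 52.3 and 73.4 ± 45.01 FPKM in OEx and 51.1 ± 23.8 and 42.7 ± 19.03 FPKM in Ctrl mice (SD between mice, n = 3). H2-DMa and H2-DMb1 came next without a fixed order (8.42 ± 5.31 and 6.06 ± 3.74 FPKM in OEx, 4.92 ± 1.86 and 4.61 ± 1.43 FPKM in Ctrl, SD, n = 3).

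In some proportions the groups did not overlap. The ratio of H2-Aa to H2-Ab1 was 0.928, 0.894 and 1.14 in the OEx mice and 0.858, 0.839 and 0.823 in the Ctrl mice. The ratio of Ciita to Cd74 was 0.00267, 0.00320 and 0.00361 in the OEx mice and 0.00165, 0.00184 and 0.000822 in the Ctrl mice. These ratios carry no scaling between mice, and 3 mice per group allow no exact two-sided p below 0.1. Over the 6 mice the Pearson r of log2(FPKM + 1) between pairs of the 6 tested genes was 0.932 to 0.998 (15 pairs), and that of Ciita with each of them was 0.643 to 0.779. Both are descriptions over 6 points in which replicates 1 and 2 of a group lie close together.

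The other genes of the class II region had low values. H2-DMb2, the second beta chain of H2-DM, was measured at 0.967, 1.304 and 0.0648 FPKM in OEx against 0.140, 0.271 and 0.192 FPKM in Ctrl mice. H2-Oa and H2-Ob, the chains of the H2-O molecule that restrains H2-DM, did not exceed 0.556 FPKM in any mouse, and H2-Eb2 did not exceed 0.114 FPKM. In total 5 such genes were present in the files and 0 passed the filter.

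The sum of macrophage transcripts ranked the mice much as class II did, though not each of its genes. The summed FPKM of the 12 macrophage markers was 461, 449 and 92.8 in the OEx mice and 109, 114 and 218 in the Ctrl mice, against 725, 732 and 172 for the 7 class II genes in the OEx mice and 265, 259 and 484 in the Ctrl mice. In both sums OEx replicates 1 and 2 were highest, Ctrl replicate 3 came next and OEx replicate 3 was lowest. Gene by gene, OEx replicates 1 and 2 were highest for 10 of the 12 markers and OEx replicate 3 was lowest of all for 6. Mertk, a receptor for the uptake of dying cells, ran the other way, at 13.2, 12.9 and 23.2 FPKM in OEx against 16.6, 17.3 and 8.50 FPKM in Ctrl mice. C1qa, a complement component made by tissue macrophages, was measured at 94.1, 96.7 and 21.1 FPKM in OEx against 21.6, 22.7 and 55.2 FPKM in Ctrl mice. Csf1r, the receptor of macrophage growth factors, was measured at 13.2, 14.1 and 3.73 FPKM in OEx against 4.14, 3.53 and 5.59 FPKM in Ctrl mice. Of the 11 macrophage markers tested, only Mrc1, the mannose receptor, was called higher with all mice (9.94, 9.33 and 4.37 FPKM in OEx against 0.213, 0.218 and 0.816 FPKM in Ctrl mice, log2 fold change 2.61, SE 0.31, limma FDR 4.34e-04). Without OEx replicate 3, 9 of these markers were called higher, beside 13.4% of all genes (12.9% with all mice). The part of macrophage number in the class II values was not tested.

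The ratio of class II to macrophage transcripts of the same mouse depended on the gene it was taken to. For the 12 markers one by one, the ratio was lower in every OEx mouse than in any Ctrl mouse for 5 (Adgre1, Csf1r, Mrc1, C1qa and C1qc), higher for 1 (Cd14) and overlapping for 6. Such separation was common in FPKM itself. Every OEx mouse lay below every Ctrl mouse for 4880 of the 12540 tested genes with a single entry, and above for 4215. Ratios to genes outside the lists were not counted. The sum of Cd74, H2-Aa, H2-Ab1 and H2-Eb1 was 1.52, 1.59 and 1.80 times the sum of the macrophage list in the OEx mice and 2.35, 2.21 and 2.16 times in the Ctrl mice. The groups did not overlap, and OEx replicate 3 lay with the other OEx mice. The same sum was 7.58 ± 0.287 times C1qa in OEx and 10.5 ± 1.75 times in Ctrl mice, and 49.5 ± 4.28 times Csf1r in OEx and 72.4 ± 11.2 times in Ctrl mice (SD, n = 3), again without overlap. Against Cd14 it was 79.4, 78.0 and 47.0 times in OEx and 30.9, 31.6 and 40.7 times in Ctrl mice, and against Lyz2, the lysozyme gene of myeloid cells, OEx replicate 3 was highest of all at 21.5 times. The smallest exact two-sided p that such a separation can have here is 0.1. Relative to Spi1, which encodes the myeloid factor PU.1, the groups overlapped (151 to 254 times in OEx and 214 to 241 times in Ctrl mice). Relative to Epcam, a marker of epithelium, they overlapped too, with 2.25, 2.30 and 0.340 times in the OEx mice and 0.863, 0.853 and 2.20 times in the Ctrl mice.

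**Figure D3:**
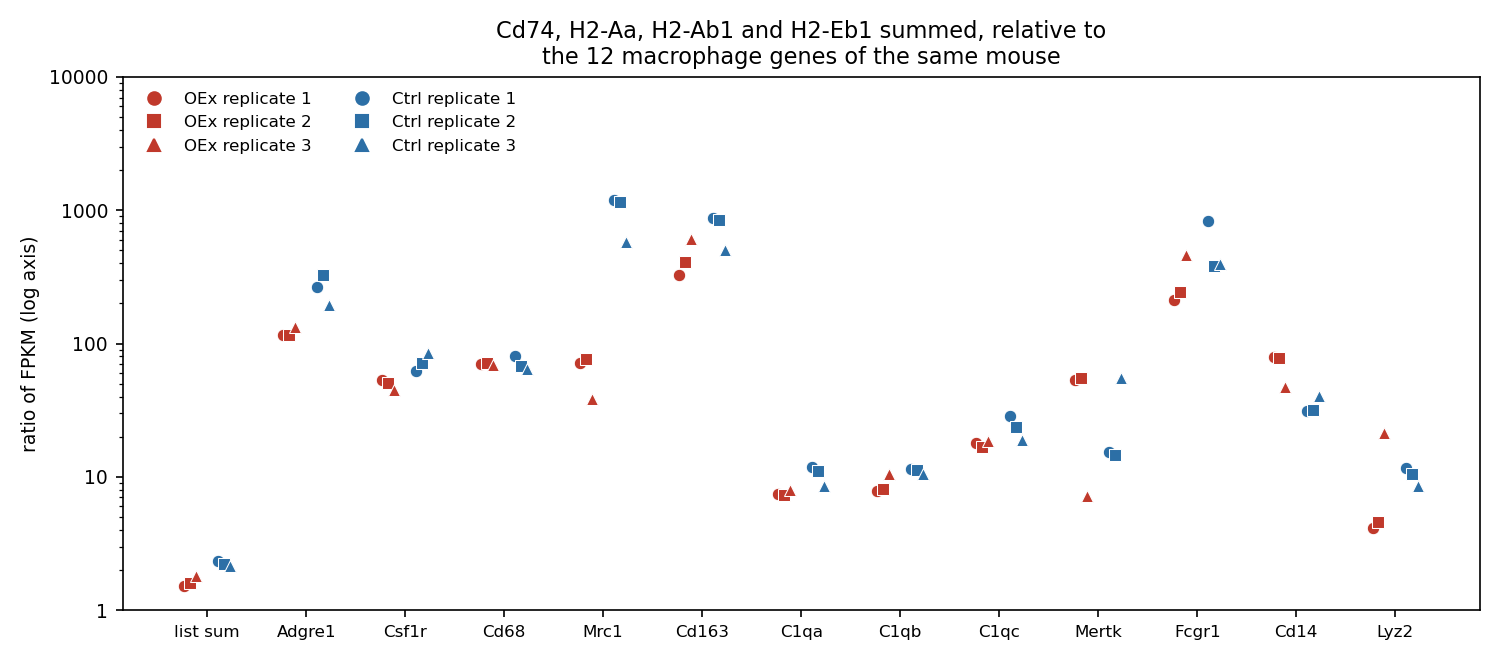
Summed FPKM of Cd74, H2-Aa, H2-Ab1 and H2-Eb1 divided by the summed FPKM of the macrophage list and by that of each of its 12 genes in the same mouse, on a log axis, with 1 point per mouse (OEx red, Ctrl blue). OEx mice lie below Ctrl mice for the list sum (1.52 to 1.80 against 2.16 to 2.35) and 5 genes, above them for Cd14, and the groups overlap for the other 6 genes.

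Markers of B cells and dendritic cells, which also express class II, were sparse. The 9 B cell markers summed to 0.208 to 1.10 FPKM in the OEx mice and 0.195 to 0.502 FPKM in the Ctrl mice. None of them passed the filter. Of 10 dendritic cell markers 2 were tested, and Ccr7 was at 0 in all Ctrl mice and at 0.456, 0.509 and 0.0280 FPKM in the OEx mice. Itgax, which encodes CD11c and is shared with macrophages, was measured at 1.54 ± 0.393 FPKM in OEx and 0.785 ± 0.205 FPKM in Ctrl mice (SD, n = 3). The dendritic cell list summed to 2.34 to 6.04 FPKM in OEx and 11.7 to 13.97 FPKM in Ctrl mice, where most of it was Batf3, which fell in OEx mice from 11.01 ± 1.18 to 0.833 ± 0.331 FPKM (SD, n = 3, limma FDR 3.94e-05).

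The summed markers of T cells and of fibroblasts were also highest in OEx replicates 1 and 2 and lowest in OEx replicate 3, an order that 4 of 10 T cell genes and 4 of 6 fibroblast genes showed one by one. The 10 T cell markers summed to 15.6, 15.6 and 4.34 FPKM in OEx against 5.45, 5.27 and 5.44 FPKM in Ctrl mice. Cd8a was the only T cell marker called higher, at 3.40, 3.39 and 1.01 FPKM in OEx against 0.462, 0.488 and 0.271 FPKM in Ctrl mice (limma FDR 0.0113). The 6 fibroblast markers summed to 249.8, 252 and 25.1 FPKM in OEx against 54.4, 53.1 and 94.7 FPKM in Ctrl mice, while the 6 epithelial markers summed to 1706 to 2136 FPKM in the OEx mice and 2063 to 2376 FPKM in the Ctrl mice. OEx replicate 3 was the highest OEx mouse for the epithelial list. The 6 NK cell markers summed to 3.29 to 19.3 FPKM in the OEx mice and 4.11 to 4.73 FPKM in the Ctrl mice, and 0 of 2 tested were called. Of the 6 general leukocyte markers Ptprc, which encodes CD45, was measured at 1.85, 1.55 and 0.427 FPKM in OEx against 0.0742, 0.114 and 0.201 FPKM in Ctrl mice and did not pass the filter. In limma-voom Ptprc was called higher (log2 fold change 3.14, SE 1.03, FDR 0.0292), as were 22.2% of the genes in that fit. The sum of that list was 187 FPKM in Ctrl replicate 3, of which Cd52 made up 170.4 FPKM, and 56.4 to 66.9 FPKM in the other mice. All 4 markers of basal epithelium and all 5 of smooth muscle were called lower, beside 15.7% of all genes. Of 5 endothelial markers 0 were called, though 3 were lower by the FDR alone, as were 4566 of the 12540 tested genes with a single entry. The median log2 fold change of the endothelial list was -0.65 in FPKM and -0.09 in TPM. In TPM the 4 basal markers but only 1 smooth muscle marker were called lower, and without OEx replicate 3 all 4 and 4. Of all 24 leukocyte markers tested, 2 were called higher with all mice, beside 12.9% of all genes. Without OEx replicate 3, 17 of the 24 were called higher, beside 13.4% of all genes. Whether cell composition accounts for the class II values was not tested.

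**Figure D4:**
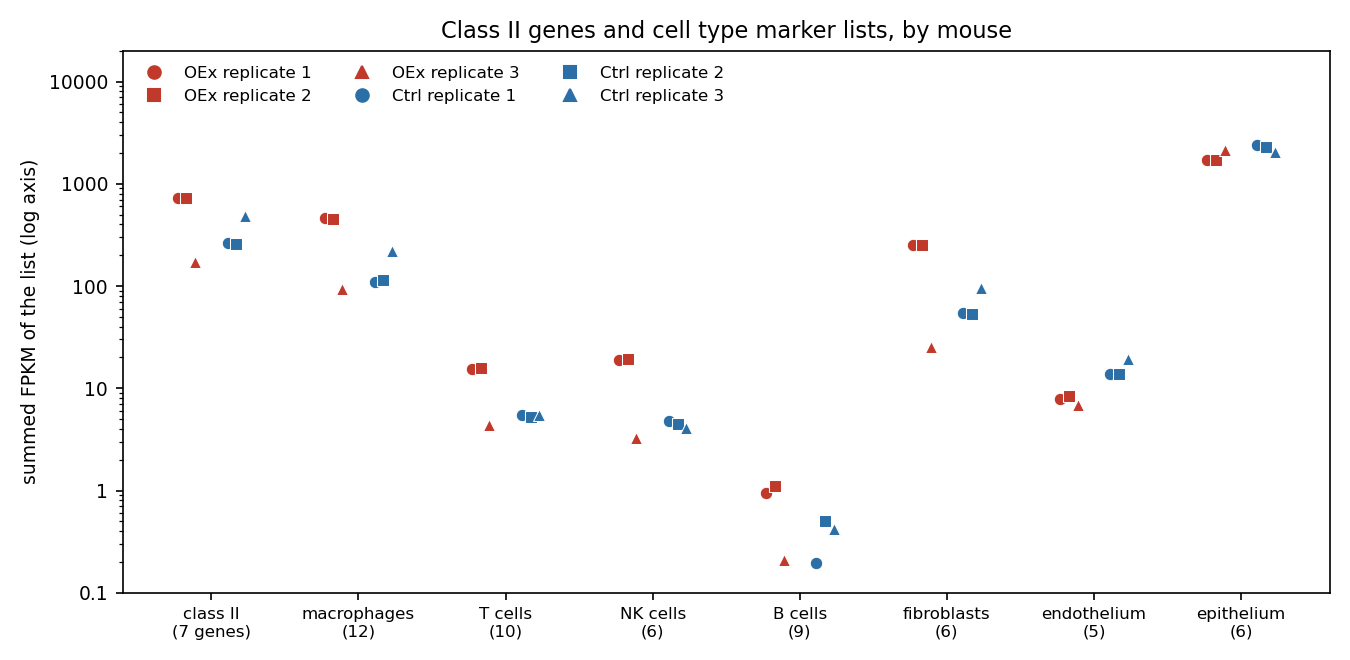
Summed FPKM of the 7 class II genes and of 7 cell type marker lists in each mouse on a log axis, with the number of genes per list in brackets. Class II, macrophage and fibroblast sums are highest in OEx replicates 1 and 2 and lowest in OEx replicate 3 (172, 92.8 and 25.1 FPKM), while epithelial sums stay between 1706 and 2376 FPKM.

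Among the genes around the class II pathway, 41 of 58 listed genes were tested, and 8 were called higher and 3 lower. Of all genes, 12.9% were called higher and 15.7% lower. The median log2 fold change of the 41 was 0.50, against -0.08 for all genes tested. In TPM 22 were called higher and 0 lower, beside the shift of all genes given above.

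Of the 7 factors that hold Ciita at class II promoters, all tested, 1 was called, beside 28.6% of all genes called in either direction. Creb1, the CREB factor, was higher (4.01, 3.65 and 3.81 FPKM in OEx against 1.07, 0.899 and 1.43 FPKM in Ctrl mice, log2 fold change 1.18, SE 0.12, limma FDR 2.54e-04). Nfyb, a subunit of NF-Y, was higher by 0.87 on the log2 scale and Rfx5, a subunit of RFX, by 0.50, both with a limma FDR under 0.05 (6.57e-04 and 0.0371) and below the fold criterion. The other RFX subunits passed the same FDR in the opposite direction, Rfxap at -0.36 (limma FDR 0.0215) and Rfxank at -0.42 (limma FDR 0.0148), and in TPM both turned positive (0.47 and 0.30). The median log2 fold change of the list was -0.01.

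On the way from interferon gamma to Ciita, 1 of 10 tested genes was called higher, beside 12.9% of all genes. By the FDR alone 3 were higher and 3 lower, beside 3941 and 4680 of all 12833 rows tested. Jak2, the kinase of the interferon gamma receptor, was measured at 12.2, 12.05 and 12.3 FPKM in OEx against 3.21, 3.24 and 4.08 FPKM in Ctrl mice, 1.55 higher on the log2 scale (SE 0.10, limma FDR 5.01e-05). OEx replicate 3 did not stand apart for this gene. Ifng itself was at 0 in 5 mice and at 0.0774 FPKM from 2 reads in OEx replicate 1. Irf1, which acts on the Ciita promoter, had a log2 fold change of 0.36 (limma FDR 0.00868). Ifngr1, the ligand-binding chain of the receptor, was lower by 0.67 (limma FDR 0.00119) in FPKM and higher by 0.22 in TPM, so its direction depended on the scaling. Usf1, a factor that binds the Ciita promoter, was lower by 0.97 (limma FDR 1.08e-04), just short of the fold criterion, was called lower in limma-voom, and stood at -0.11 in TPM. Irf8, a factor of myeloid cells, was lower by 0.52 (limma FDR 0.0166) in FPKM and at 0.26 in TPM. Spi1 was measured at 4.63, 4.72 and 0.658 FPKM in OEx against 1.10, 1.18 and 1.95 FPKM in Ctrl mice, with OEx replicate 3 lowest of all as for class II.

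In the loading pathway 2 of 10 tested genes were called higher and 2 lower, beside 12.9% and 15.7% of all genes. Ctss, the cathepsin that makes the last cuts in the invariant chain, was measured at 67.5, 62.5 and 15.7 FPKM in OEx against 12.01, 9.73 and 15.0 FPKM in Ctrl mice. It was called higher (log2 fold change 1.68, SE 0.54, limma FDR 0.0293), though not without the filter on low values (limma FDR 0.0609), and OEx replicate 3 lay only just above the Ctrl mice. Against Cd74 of the same mouse, Ctss stood at 0.193 ± 0.00564 in OEx and 0.0817 ± 0.0117 in Ctrl mice (SD, n = 3), without overlap. Lgmn, an endosomal asparagine endopeptidase, was also called higher (40.2, 39.1 and 20.4 FPKM in OEx against 12.7, 13.3 and 15.0 FPKM in Ctrl mice, limma FDR 0.00650). Ctsd, an aspartic protease of lysosomes, fell from 534 ± 60.7 FPKM in Ctrl to 224 ± 17.1 FPKM in OEx mice (SD, n = 3, limma FDR 1.60e-04). Ifi30, the thiol reductase GILT that opens disulfide bonds of antigens, fell from 104 ± 2.56 to 51.6 ± 9.71 FPKM (SD, n = 3, limma FDR 9.72e-04). In TPM neither Ctsd (-0.34 on the log2 scale) nor Ifi30 (-0.12) was called, though both stayed below 0, and Ifi30 was not called without OEx replicate 3 either.

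Of the genes tied to CD74 as a receptor, 4 of 5 were tested. Ddt, a homologue of the ligand MIF, was called lower (9.27 ± 1.01 FPKM in OEx and 21.9 ± 1.88 FPKM in Ctrl mice, SD, n = 3, limma FDR 1.75e-04), and in TPM its log2 fold change was -0.31 and not called. Mif was measured at 137, 141 and 90.9 FPKM in OEx against 156, 149.9 and 173 FPKM in Ctrl mice (limma FDR 0.0930). Cd44, the co-receptor that carries the signal of CD74, was higher by 0.65 on the log2 scale (limma FDR 0.00827), below the fold criterion.

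Costimulatory ligands, which antigen-presenting cells show beside class II, were mostly below the filter. Icosl, the ligand of ICOS on T cells, was the 1 gene of 7 that passed it and was called higher (12.7, 11.8 and 11.4 FPKM in OEx against 1.64, 1.66 and 2.75 FPKM in Ctrl mice, log2 fold change 2.12, SE 0.15, limma FDR 7.04e-05). Cd86 was measured at 1.14, 1.302 and 0.378 FPKM in OEx against 0.218, 0.338 and 0.342 FPKM in Ctrl mice. Cd80 was measured at 0.745, 0.697 and 0.165 FPKM in OEx against 0.0216, 0.0209 and 0.124 FPKM in Ctrl mice. For both genes OEx replicate 3 lay near the Ctrl mice.

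The class I pathway presents peptides from the cytosol in nearly all cells. For all 9 of its genes every OEx mouse exceeded every Ctrl mouse, against 33.4% of all genes tested. Of the 9, 8 were higher with a limma FDR under 0.05, against 3869 of the 12540 tested genes with a single entry. B2m, Psmb8 and Nlrc5 were called higher, beside 12.9% of all genes. B2m, the light chain, was measured at 5038, 4597 and 7110 FPKM in OEx against 1749, 1726 and 1927 FPKM in Ctrl mice, 1.61 higher on the log2 scale (SE 0.19, limma FDR 3.91e-04), with OEx replicate 3 highest of all. H2-K1, a heavy chain, was measured at 800.4, 803 and 685 FPKM in OEx against 394, 383 and 394 FPKM in Ctrl mice, and its log2 fold change of 0.96 (limma FDR 2.56e-04) was just below the criterion. Nlrc5, the class I transactivator related to Ciita, was measured at 2.64, 2.46 and 0.594 FPKM in OEx against 0.198, 0.10004 and 0.271 FPKM in Ctrl mice (limma FDR 0.0160), and like Ciita it was lowest in OEx replicate 3 among the OEx mice. The difference between class I and class II fold changes was not tested.

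**Figure D5:**
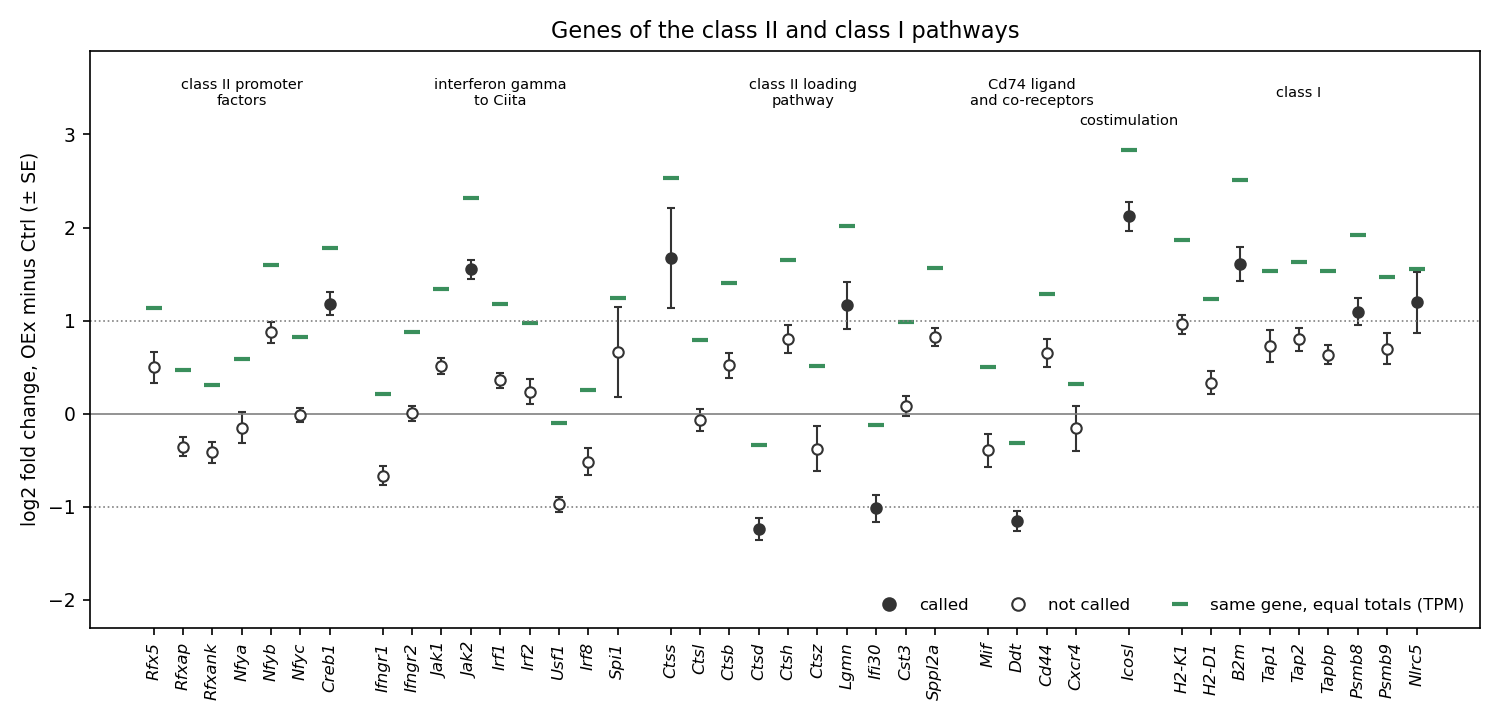
Log2 fold change (OEx minus Ctrl) with standard error of tested genes around the class II pathway, filled where called, and the value of the same gene in TPM as a green bar. Icosl (2.12) is the highest and Ctsd (-1.24) the lowest in FPKM, and the 9 class I genes all lie above 0 on both scales.

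The genes most like class II in their pattern were sought among the 7114 tested genes that averaged 5 FPKM or more, by the Pearson r of log2(FPKM + 1) with the mean of the 6 tested class II genes over the 6 mice. Outside the lists, the 8 highest were C1s1 (r 0.999), Sparc (0.997), Fstl1 (0.995), Bok (0.990), Mfap5 (0.989), Col4a2 (0.988), Msn (0.984) and Col16a1 (0.984). C1s1 encodes a complement protease, and Sparc, Mfap5, Col4a2 and Col16a1 encode proteins of the extracellular matrix. Sparc was measured at 159.96, 167 and 20.9 FPKM in OEx against 47.0, 46.3 and 94.0 FPKM in Ctrl mice. Within groups, on deviations from the group means, Lsp1, Serping1, Nupr1, C1s1, Serpinh1, Ccdc80, Tuba1a and Mfap5 ranked highest (r of 0.9986 to 0.9998). Of these, Tuba1a was called lower, at 13.1, 13.0 and 5.99 FPKM in OEx against 30.9, 30.8 and 40.3 FPKM in Ctrl mice, a difference of -1.64 on the log2 scale (limma FDR 0.00240). Of the listed genes, Lyz2 (0.992), Cd68 (0.989) and C1qb (0.988), all macrophage markers, had the highest r over the 6 mice outside class II. Over the 8 macrophage markers at 5 FPKM or more, r ran from -0.75 (Mertk) to 0.992. These values rest on 6 mice in 2 groups and are descriptions of likeness.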

How the data were processed

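Total RNA of whole AP was sequenced by the authors with TruSeq libraries on a HiSeq system. The submitters' processing notes list HISAT2 2.0.5, featureCounts 1.5.0-p3, StringTie 1.3.3b and CASAVA without roles, and the genome build is not given in the sources used here. The authors deposited FPKM by gene symbol, 1 table per mouse. Symbols were matched to GENCODE vM21 (GRCm38, 53710 of 55076 rows placed), and reads were recovered from FPKM and exon length. Between 96.9% and 97.5% of values under 1000 reads were whole within 0.05 reads. Depth was 14772005 to 18655462 reads per mouse, and 3 reads correspond to a CPM of 0.161 to 0.203 (counting error only).

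Groups were compared with limma 3.58.1 (R 4.3.3) on log2(FPKM + 1) over 12833 rows averaging 1 FPKM or more, with eBayes with an intensity trend and Benjamini-Hochberg adjustment, and called at FDR under 0.05 and a log2 fold change over 1. The fit was tested on simulated data. Limma-voom with TMM on recovered reads was an alternative, over rows with at least 10 reads in at least 3 mice (3517 called higher, 2781 lower). Other alternatives changed the pseudocount (0.1), filter (none, or 5 FPKM), scaling, trend, call rule and replicates. Exact permutation tests were two-sided over 3 against 3 mice. The labels name neither litters nor handling, so p-values measure only the spread between these samples, which may be technical. Genes and lists were chosen with earlier results of these data known. Named genes are the class II genes, genes of the pathway and marker lists, and the 8 genes most alike; values of some listed genes are not reported here. Tables used Python 3.11.15 with pandas 2.3.3, scipy 1.17.1 and numpy 2.4.6, and plots matplotlib 3.10.9.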

Additional observations from a re-analysis of the deposited data

How the results depend on the processing

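With all 6 mice, the 0 class II genes called higher and 0 called lower were also 0 with a pseudocount of 0.1, without a filter, with a minimum of 5 FPKM, in TPM, with upper-quartile scaling, with equal totals without the 20 most abundant genes, without the intensity trend, with the FDR alone and with the replicate block. Limma-voom called 1 higher (Ciita). Leaving out 1 mouse gave 0 to 5 called higher, the 5 without OEx replicate 3. Added after the data were seen, the fit without replicate 3 of both groups called 5 higher, TPM without OEx replicate 3 called 6 higher (beside 36.0% of all genes), and replicates 1 and 2 averaged to 1 mouse in each group called 0. No alternative called any class II gene lower.

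The log2 fold change turned negative for H2-Ab1 without OEx replicate 1 (-0.05), without OEx replicate 2 (-0.092; range with 1 mouse left out -0.092 to 1.17) and with replicates 1 and 2 averaged (-0.25), and for H2-DMb1 without OEx replicate 1 (-0.16), OEx replicate 2 (-0.07) or Ctrl replicate 2 (-0.04) and with replicates 1 and 2 averaged (-0.20), in a range of -0.16 to 0.74 with 1 mouse left out. None of these negative values was called. With replicates 1 and 2 averaged, the log2 fold changes of Cd74, H2-Aa, H2-Eb1 and H2-DMa stayed positive but small, at 0.04, 0.03, 0.03 and 0.04.

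For the pathway lists, 8 genes called higher became 22 in TPM, 13 with upper-quartile scaling, 19 without the 20 most abundant genes in the totals, 21 with the FDR alone, 4 with replicates 1 and 2 averaged, 24 in TPM without OEx replicate 3, and 5 (without OEx replicate 1) to 10 with 1 mouse left out. For the leukocyte lists, 2 became 0 with a minimum of 5 FPKM, 13 in TPM, 7 without the 20 most abundant genes, 17 without replicate 3 of both groups, 1 with replicates 1 and 2 averaged, 19 in TPM without OEx replicate 3, and 2 to 17 (without OEx replicate 3) with 1 mouse left out. The cause was not tested, beyond the construction of each alternative. Over all genes, 1653 higher and 2021 lower calls became 4458 and 504 in TPM, 2341 and 1326 with upper-quartile scaling and 3477 and 717 without the 20 most abundant genes, with medians of 0.65, 0.15 and 0.45.

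The labels do not say that replicate numbers pair mice, and deviations of same-numbered mice correlated at -0.31 to -0.19, against -0.23 to 0.27 for other pairs. The replicate block called 0 class II genes, 7 pathway genes and 2 leukocyte markers higher, with 1611 higher and 1986 lower over all genes. Depth limits Ciita, with 25 to 28 reads in Ctrl mice.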
